A study of Mus musculus with 6 samples.

Results

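The genomic neighbourhoods of 6 mouse enzyme genes were examined, 5 of granulocyte granules and the related Lpo, namely the peroxidase genes Mpo, Lpo and Epx and the serine protease genes Prtn3, Elane and Ctsg. The members are methylated DNA peaks that touch 3 windows of the mm9 genome, 56 peaks of 164274 in all. The window of Mpo, Lpo and Epx runs from 87.60 to 87.70 Mb on chromosome 11 (100 kb). That of Prtn3 and Elane runs from 79.33 to 79.36 Mb on chromosome 10 (30 kb), and that of Ctsg from 56.70 to 56.74 Mb on chromosome 14 (40 kb). The windows were selected on where genes lie and with earlier results of these same peak lists known, so that peak presence is given as a description and no value below is a test.

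The series profiled DNA methylation as mouse blood stem cells differentiate. Methylated DNA was pulled down with MBD2, a protein that holds methylated CpG sites, and the bound DNA was sequenced as 36 bp reads. All samples are labelled as female mice of the C57BL/6 background. Stem cells (HSC) and common myeloid progenitors (CMP) came from adult bone marrow freed of cells with mature lineage markers. HSC were sorted as positive for Sca-1 and c-kit, and CMP as positive for c-kit without Sca-1. For the erythroblasts (ERY), nucleated precursors of red cells, the way of isolation is not given in the sources used. The labels name no CD34 or CD16/32 staining, by which CMP are commonly parted from granulocyte-monocyte and megakaryocyte-erythroid progenitors inside the same gate. The HSC gate also takes in multipotent progenitors. Peak lists cannot check these identities, since they hold no expression of marker genes. Each cell type has 1 enriched library, so nothing here could be compared with the spread between replicates.

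Mpo encodes myeloperoxidase, which makes hypochlorous acid from hydrogen peroxide and chloride. Elane, Prtn3 and Ctsg encode neutrophil elastase, proteinase 3 and cathepsin G, serine proteases that are stored with myeloperoxidase in the azurophil granules of neutrophils. These genes are transcribed early in granulocyte development, in granulocyte-monocyte progenitors and promyelocytes, under factors that include the ETS protein PU.1 and C/EBP proteins. Epx encodes the peroxidase of eosinophil granules, and Lpo encodes lactoperoxidase, an enzyme of milk, saliva and airway secretions. Methylated CpG sites are commonly found over inactive regulatory DNA and are often absent from active regulatory DNA.

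In the RefSeq gene order of assembly GRCm38, the chromosome 11 genes follow each other as Mpo, Lpo, Mks1 and Epx, with Rnf43, Supt4a and Tspoap1 before them and the olfactory receptor genes Olfr462, Olfr463 and Olfr464 after them. On chromosome 10 Prtn3 and Elane are adjacent and are followed by Cfd, the gene of the serine protease adipsin, and by Med16 and R3hdm4. Misp, Ptbp1 and Plppr3 come before them. On chromosome 14 Ctsg lies between the mast cell protease genes Mcpt9, Mcpt4 and Mcpt8 and the granzyme genes Gzme, Gzmd and Gzmg. This table belongs to a different assembly from the peaks. Whether a peak lies in an exon, an intron or a promoter was therefore not resolved, and a peak is tied to a gene here by its window alone.

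MBD2 binds methylated CpG sites, so the promoter sequences are shown with every CpG in capitals. All 6 members matched a RefSeq promoter of assembly GRCm38.p6, which covers 250 bases before and 50 after the start of the gene. The 4 azurophil granule genes are printed because all of them also hold the letters AGGAAGT, an extended ETS core, in capitals too. This motif was chosen after the sequences were seen. The coordinates are on GRCm38.p6 and cannot be set against the mm9 peak positions.
Mpo, chr11:87793534-87793833, plus strand: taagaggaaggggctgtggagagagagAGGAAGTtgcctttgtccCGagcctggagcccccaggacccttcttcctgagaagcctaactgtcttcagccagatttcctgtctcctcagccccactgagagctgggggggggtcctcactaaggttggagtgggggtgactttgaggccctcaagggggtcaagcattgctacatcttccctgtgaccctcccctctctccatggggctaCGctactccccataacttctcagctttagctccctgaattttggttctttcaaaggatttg
Prtn3, chr10:79879417-79879716, plus strand: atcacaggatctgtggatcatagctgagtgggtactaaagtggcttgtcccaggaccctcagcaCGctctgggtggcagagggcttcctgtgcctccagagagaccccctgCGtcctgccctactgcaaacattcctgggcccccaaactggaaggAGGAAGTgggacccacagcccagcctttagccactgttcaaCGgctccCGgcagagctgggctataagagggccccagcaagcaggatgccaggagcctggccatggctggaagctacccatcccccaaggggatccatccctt
Elane, chr10:79886062-79886361, plus strand: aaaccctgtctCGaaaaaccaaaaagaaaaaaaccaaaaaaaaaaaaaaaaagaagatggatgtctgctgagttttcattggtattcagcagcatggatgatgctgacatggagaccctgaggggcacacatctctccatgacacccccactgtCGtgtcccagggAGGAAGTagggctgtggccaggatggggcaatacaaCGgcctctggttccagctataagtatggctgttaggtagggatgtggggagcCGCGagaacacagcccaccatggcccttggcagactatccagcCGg
Ctsg, chr14:56102525-56102824, minus strand: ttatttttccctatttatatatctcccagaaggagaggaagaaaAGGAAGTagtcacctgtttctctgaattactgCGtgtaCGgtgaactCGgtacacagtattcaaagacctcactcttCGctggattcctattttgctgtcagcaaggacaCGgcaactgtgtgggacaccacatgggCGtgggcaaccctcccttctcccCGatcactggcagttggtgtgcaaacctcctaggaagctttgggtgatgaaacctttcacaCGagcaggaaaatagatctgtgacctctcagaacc

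Of the 6 promoters, 5 had fewer CpG sites than the median promoter. Those of Mpo and Lpo held 2 each, that of Prtn3 4, that of Epx 5, that of Elane 6 and that of Ctsg 8, against a median of 7 over 32851 RefSeq promoters (interquartile range 3 to 20). Of all these promoters, 23.3% had 2 CpG sites or fewer, and 54.2% had 8 or fewer. The CpG content relative to the base composition (observed over expected) was lowest for Mpo at 0.0871 and highest for Ctsg at 0.464, with a median of 0.384 over all promoters. An MBD2 pulldown has little to bind in a stretch as poor in CpG as the Mpo promoter, so the lack of a peak over such a sequence would not show that it was unmethylated.

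The motif AGGAAGT, searched on both strands, occurred once in each of the promoters of Mpo, Prtn3, Elane and Ctsg and in neither that of Lpo nor that of Epx. It was present in 9.35% of all promoters. Its first base lay 223 bp before the start of Mpo, 94 bp before that of Prtn3, 84 bp before that of Elane and 206 bp before that of Ctsg. The shorter ETS core GGAA, which lies inside AGGAAGT, occurred in all 6 promoters and in 96.0% of all promoters. CCGGAA (14.9% of all promoters) and TTGCNNAA (10.8%), a strict form of the C/EBP motif, were found in none of the 6. Looser forms of the C/EBP motif were not searched. The GATA motif (letters GATA, 57.9%) was found in those of Epx, Elane and Ctsg. These matches describe letters in a 300 bp sequence and not bound sites.

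**Figure D1:**
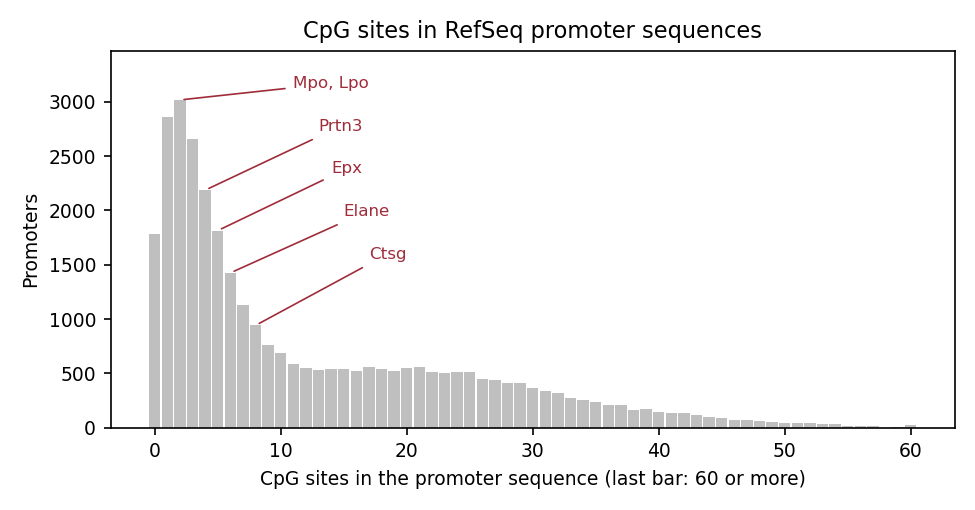
Number of CpG sites (horizontal axis) in each of 32851 RefSeq promoter sequences of 300 bp, with the number of promoters on the vertical axis and lines to the bars that hold the 6 peroxidase and protease genes. Mpo and Lpo, with 2 CpG sites, fall in the tallest bar, and Ctsg, with 8, lies just above the median of 7.

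The 3 windows together contained 24 peaks of HSC, 17 of CMP and 15 of ERY. HSC peaks covered 23402 bp of the windows, CMP peaks 15849 bp and ERY peaks 12851 bp, or 13.8%, 9.32% and 7.56% of the 170 kb. The windows of the peroxidases and of Prtn3 and Elane were dense in peaks, while that of Ctsg was sparse. The Mpo, Lpo and Epx window had 18 HSC, 11 CMP and 11 ERY peaks. Of 26420 stretches of 100 kb laid end to end over the chromosomes, 0.833% had at least 18 HSC peaks, 1.33% at least 11 CMP peaks and 0.250% at least 11 ERY peaks. The Prtn3 and Elane window had 5 HSC, 5 CMP and 4 ERY peaks, and 3.76%, 1.11% and 0.804% of 88042 stretches of 30 kb had at least as many in these lists. The counts of this short window include peaks that cross its edges, and peaks that touch a stretch were counted in the same way. The stretches ran from the start of each chromosome to its last peak, with no part left out. The Ctsg window had 1 HSC peak, 1 CMP peak and no ERY peak, and 55.5% and 42.5% of 66034 stretches of 40 kb had at least 1 peak in HSC and in CMP.

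Most HSC peaks of the windows had a counterpart at the later stages. An earlier peak counts as kept if at least 1 bp of it lies under a later peak. CMP kept 16 of the 24 HSC peaks, 66.7% (95% exact Clopper-Pearson interval 44.7 to 84.4%), beside 57.1% of all HSC peaks. ERY kept 14 of the 24, 58.3% (36.6 to 77.9%), beside 30.9% of all HSC peaks. Of the 17 CMP peaks ERY kept 13, 76.5% (50.1 to 93.2%), beside 50.7% of all CMP peaks. The intervals reflect counting error alone, and they take each peak as separate although neighbouring peaks share a library and a locus. The members were selected with this pattern in view, and nothing is read from the distance to the shares of the whole lists. For shares of bases the HSC peaks were taken whole, with their parts outside the windows, 25306 bp in all. Of these bases 57.7% also lay under a CMP peak and 50.5% under an ERY peak, beside 52.2% and 28.2% over the whole HSC list.

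**Figure D2:**
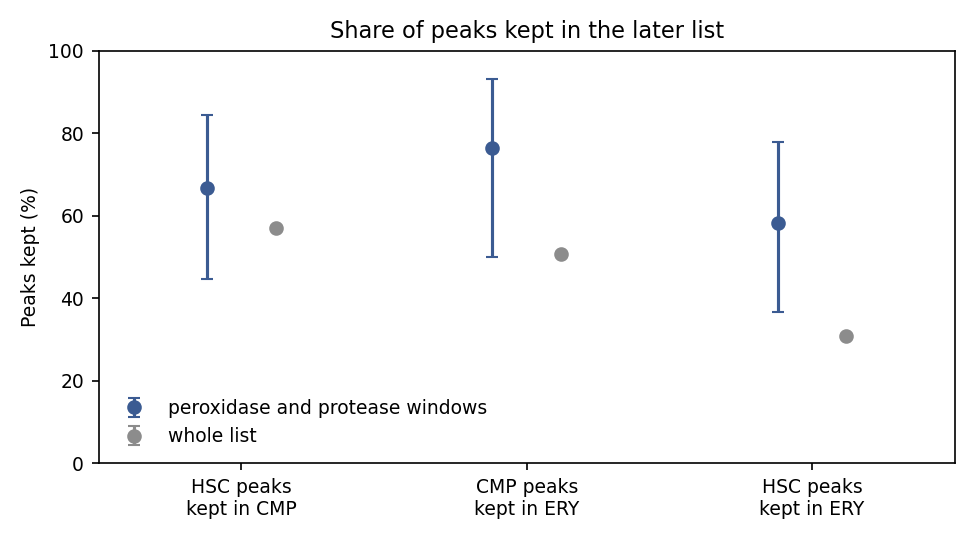
Share of peaks kept in the later list (vertical axis, %), for the peaks of the peroxidase and protease gene windows (blue) and for the whole list (grey), with 95% exact binomial intervals. The windows stand at 66.7%, 76.5% and 58.3% for HSC in CMP, CMP in ERY and HSC in ERY, with wide intervals since they rest on 24, 17 and 24 peaks. The intervals take each peak as separate, although the peaks are not replicates, and the windows were not tested against the whole list.

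Merged across the lists, the peaks formed 26 regions. A peak was present in all 3 cell types in 13 of them, in HSC alone in 7, and in HSC and CMP in 3. Beside these, 28.5%, 40.7% and 26.4% of all 87514 merged regions of the genome fell in the same classes. Single regions had a peak in HSC and ERY without CMP (1.20% of all regions), in CMP alone (1.72%) and in ERY alone (1.16%). None had a peak in CMP and ERY without HSC (0.323%). In the windows 1 of 17 CMP peaks and 1 of 15 ERY peaks lacked an HSC peak, beside 3.54% and 4.68% of these lists, and 2 of 15 ERY peaks lacked a CMP peak, beside 7.52%.

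In the Mpo, Lpo and Epx window, 7 of 18 HSC peaks lacked a CMP peak, and 5 of these 7 lay together at its low-coordinate end. The first 5 HSC peaks of the window, within 12.7 kb from 87609035 to 87621723, all lacked a CMP peak, beside 42.9% of all HSC peaks. Of the other 13 HSC peaks of the window, CMP kept 11. This division was made after the positions were seen. The 8 of 18 HSC peaks without an ERY peak were spread more widely, with 4 in this group and 4 further along the window. Over the whole list, 59278 of 85797 HSC peaks had no ERY peak. The 5 peaks covered 5580 bp, which was 33.4% of the HSC-covered length of the window. They ran from 87609035 to 87609955 (921 bp), 87610631 to 87611404 (774 bp), 87613201 to 87613742 (542 bp), 87614480 to 87617309 (2830 bp) and 87621211 to 87621723 (513 bp). ERY had a peak over the second of them alone, from 87610707 to 87611428 (722 bp). Its start lay 76 bp and its end 24 bp to the right of those of the HSC peak.

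The widest of the 5 was singled out for its size after the positions were seen, so its ranks are a description. Only 177 of the 85797 HSC peaks were wider than its 2830 bp. Of the 178 HSC peaks at least as wide, itself included, 176 (98.9%) had a CMP peak and 166 had an ERY peak. It was 1 of the 2 that had no CMP peak. The other 4 peaks of the group, 513 to 921 bp wide, were of ordinary width for the list, whose median is 748 bp.

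The stretch without CMP peaks continued to the left of the window. The next 2 HSC peaks in that direction, 87591268 to 87592714 (1447 bp) and 87575895 to 87576533 (639 bp), also had no CMP peak. This made a run of 7 consecutive HSC peaks without one, over 45.8 kb and with 7666 bp covered. The 36777 HSC peaks without a CMP peak form 20585 such runs, single peaks included. Of these runs, 159 held at least 7 peaks, and 13 of the 159, this run included, had a span no longer than its own. The run was picked after the positions were seen, so these counts are a description too. In the CMP list the gap around the run was 75010 bp, from the peak that ends at 87552308 to the peak that starts at 87627319. Gaps at least this long made up 18.7% of those between neighbouring CMP peaks, whose median was 19.1 kb. The ERY peak at 87610707 to 87611428 lies inside that gap.

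**Figure D3:**
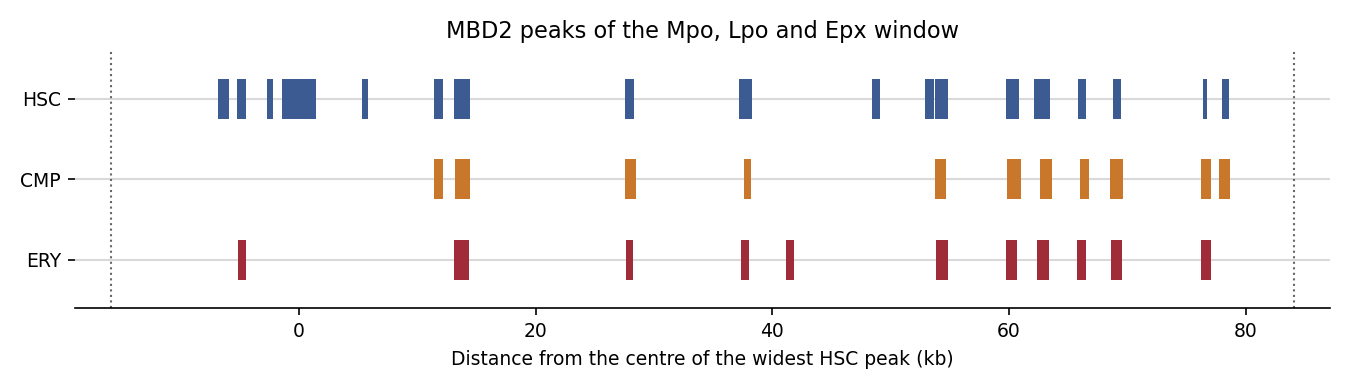
Position of each MBD2 peak of the Mpo, Lpo and Epx window in the HSC, CMP and ERY lists (rows), as distance in kb from the centre of the widest HSC peak. Bars are peaks drawn to scale and dotted lines are the ends of the window. The 5 HSC peaks on the left have no CMP peak below them and 1 ERY peak, whereas most peaks further right appear in all 3 rows.

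Past the run, the Mpo, Lpo and Epx window was marked by peaks of all 3 lists. Numbered along the window from its low-coordinate end, regions 7, 8, 9 and 13 to 18 had a peak in each list. Region 6 started 5595 bp after the run, with an HSC peak from 87627349 to 87628041 (693 bp) and a CMP peak from 87627319 to 87628107 (789 bp), and had no ERY peak. Region 7 followed 905 bp further on and was of nearly the same extent in the 3 lists, with an HSC peak of 1351 bp, a CMP peak of 1268 bp and an ERY peak of 1255 bp. It ran from 87629013 to 87630378 over the lists.

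Regions 8 and 9 were also shared. Region 8, from 87643443 to 87644400, had an HSC peak of 787 bp, a CMP peak of 954 bp and an ERY peak of 615 bp. Region 9, from 87653104 to 87654149, had an HSC peak of 1046 bp, a CMP peak of 577 bp and an ERY peak of 669 bp. Both later lists were thus shorter than HSC in region 9, and only ERY was in region 8. The ERY peak from 87657039 to 87657741 (703 bp), region 10, had no peak in the other lists. It was narrower than the median ERY peak of 788 bp. Regions 11 and 12 had HSC peaks alone, from 87664330 to 87664986 (657 bp) and from 87668831 to 87669527 (697 bp). The second of these ended 114 bp before region 13.

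The last part of the window, from region 13 on, held 6 shared regions and 1 that ERY lacked. Region 13, from 87669642 to 87670748, had an HSC peak of 1094 bp, a CMP peak of 896 bp and an ERY peak of 1021 bp. Region 14, from 87675618 to 87676878, had an HSC peak of 1144 bp, a CMP peak of 1148 bp and an ERY peak of 897 bp. Region 15, from 87678021 to 87679514, had an HSC peak of 1348 bp, a CMP peak of 991 bp and an ERY peak of 1077 bp. In these 3 the longest peak belonged to HSC except in region 14, where CMP was longer by the few bases shown. Region 16, from 87681652 to 87682619, had an HSC peak of 702 bp, a CMP peak of 746 bp and an ERY peak of 726 bp, the most even of the shared regions of this part.

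In the next regions the later peaks were longer than the HSC peak. Region 17, from 87684440 to 87685519, had an HSC peak of 648 bp, a CMP peak of 1080 bp and an ERY peak of 912 bp. Region 18, from 87692113 to 87692946, had an HSC peak of 341 bp, a CMP peak of 818 bp and an ERY peak of 808 bp. The CMP peak was thus 2.40 times and the ERY peak 2.37 times the HSC length in region 18. That HSC peak was among the narrowest of its list, with 0.333% of HSC peaks narrower. Region 19, the last, had 615 bp in HSC from 87693885 to 87694499 and 883 bp in CMP from 87693659 to 87694541, with no ERY peak.

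In the Prtn3 and Elane window 4 of 6 regions had a peak in each list. The first region straddles the window's low edge, so that most of it lies outside. Its HSC peak was 2200 bp long, its CMP peak 1982 bp and its ERY peak 2060 bp, from 79328124 to 79330438 over the lists. Region 2 was an HSC peak alone, from 79345464 to 79346088 (625 bp). Region 3 was a CMP peak alone, from 79349503 to 79350000 (498 bp), and 5.96% of CMP peaks were narrower.

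In region 4 of this window the CMP and ERY peaks were shorter than the HSC peak, at its low-coordinate edge. The HSC peak ran from 79350162 to 79352053 (1892 bp), the CMP peak from 79350972 to 79352031 (1060 bp) and the ERY peak from 79350971 to 79351966 (996 bp). The start was 810 bp further right in CMP and 809 bp further right in ERY than in HSC. The CMP end lay 22 bp and the ERY end 87 bp to the left of the HSC end. The CMP peak of region 3 ended 161 bp before the HSC peak of region 4 began, so the part of the HSC peak before the CMP and ERY starts was covered in HSC alone and had CMP peaks on both sides.

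In region 5 the ERY peak was the shortest, with its end well inside the HSC and CMP peaks. Its HSC peak ran from 79354052 to 79355615 (1564 bp), its CMP peak from 79353908 to 79355627 (1720 bp) and its ERY peak from 79353905 to 79354860 (956 bp). The ERY peak thus ended 755 bp to the left of the HSC peak, while its start lay within 3 bp of the CMP start. Region 6, which crosses the high edge of the window in HSC and ERY, had an HSC peak of 1107 bp, a CMP peak of 1034 bp and an ERY peak of 1277 bp, from 79358774 to 79360124 over the lists.

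The Ctsg window had a single region. The HSC peak ran from 56734325 to 56735539 (1215 bp, wider than 91.1% of HSC peaks) and the CMP peak from 56734406 to 56735354 (949 bp). No ERY peak was called in the 40 kb, and the ERY list holds 10.5 peaks per Mb over the chromosomes. Over the whole lists, 59278 of 85797 HSC peaks and 24976 of 50638 CMP peaks had no ERY peak. Since the lists give neither read counts nor scores, the gap at Ctsg shows that no ERY peak was called there. It does not show that methylation was absent.

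**Figure D4:**
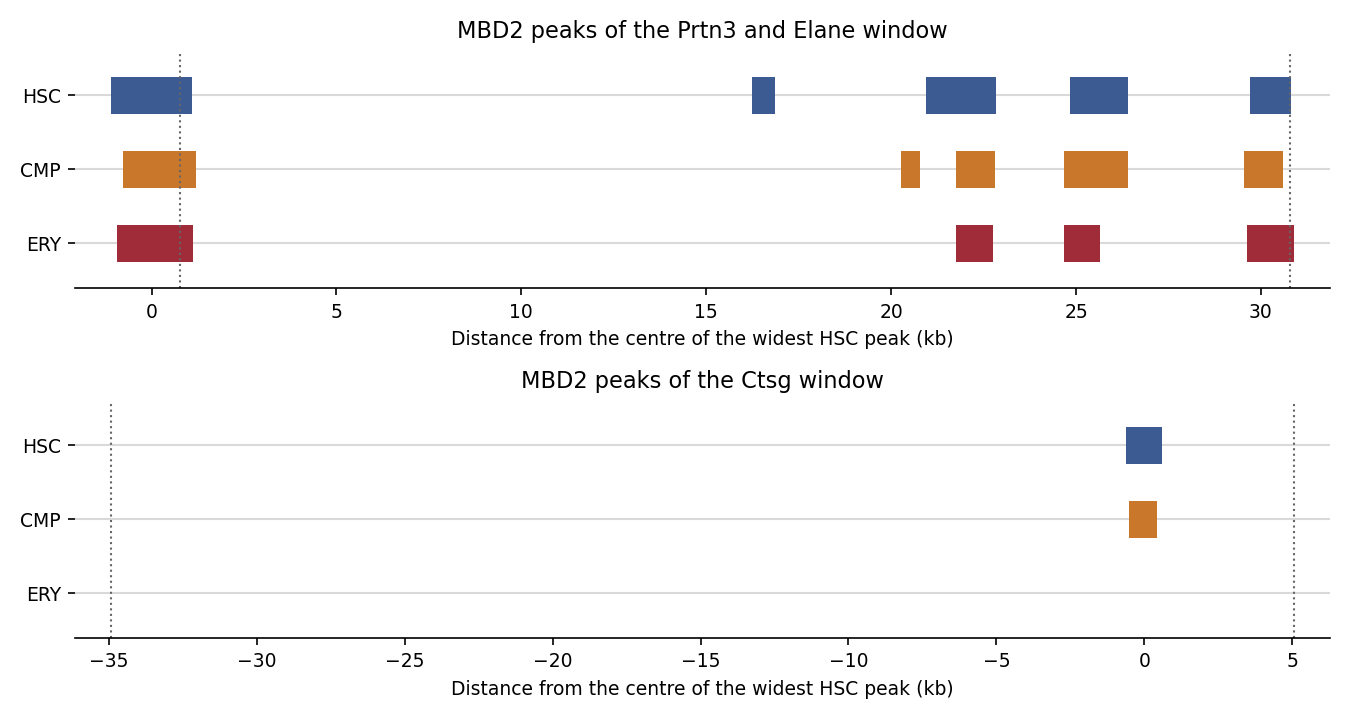
Position of each MBD2 peak of the Prtn3 and Elane window (top) and the Ctsg window (bottom) in the HSC, CMP and ERY lists (rows), as distance in kb from the centre of the widest HSC peak of the window. Bars are peaks drawn to scale and dotted lines are the ends of the window. The chromosome 10 window shows 4 regions in all 3 rows, and the chromosome 14 window shows 1 region in the HSC and CMP rows.

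Within the 13 regions shared by all lists the HSC peaks had a median length of 1107 bp, the CMP peaks 1034 bp and the ERY peaks 956 bp, beside 886, 898 and 801 bp over all 24935 such regions. ERY was shorter than HSC in 9 of the 13 (65.1% over all such regions) and CMP in 7 (49.8%). The ratio of ERY to HSC length ranged from 0.526 in region 4 of the Prtn3 and Elane window to 2.37 in region 18 of the peroxidase window. The ratio of CMP to HSC length ranged from 0.552 in region 9 to 2.40 in region 18, both in the peroxidase window. The median width was 1100.5 bp for HSC peaks that CMP kept and 677 bp for HSC peaks that it lacked, beside 812 and 678 bp over the whole list. The 2830 bp peak was the exception among the absent ones, whose other widths lay between 513 and 921 bp.

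**Figure D5:**
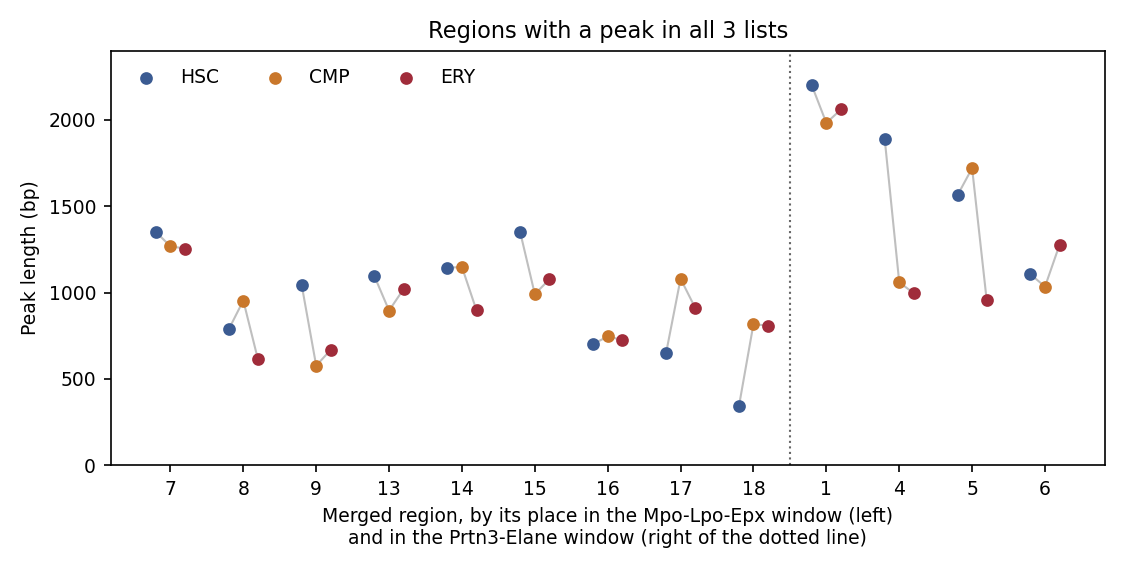
Peak length in bp (vertical axis) of the 13 regions with a peak in HSC (blue), CMP (orange) and ERY (red), each joined by a grey line. The horizontal axis gives the region's number in the Mpo, Lpo and Epx window (left of the dotted line) and in the Prtn3 and Elane window (right). Region 18 stands at 341 bp in HSC and at 818 and 808 bp in CMP and ERY, and region 4 of the Prtn3 and Elane window at 1892, 1060 and 996 bp.

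The edges of the windows set which peaks are members. On chromosome 11 the nearest HSC peaks outside were 7.29 kb before and 7.54 kb after the window, so its count would not change with a small shift of the edges. On chromosome 10 peaks crossed both edges, and the next peaks outside, from 79360457 to 79362468 (2012 bp) in HSC, 79360514 to 79362545 (2032 bp) in CMP and 79360580 to 79361407 (828 bp) in ERY, began within 0.579 kb of the end. On chromosome 14 the nearest outside peak after the window was 22.4 kb away in HSC and CMP and 281 kb away in ERY.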

How the data were processed

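MBD2-enriched DNA of 3 cell types was sequenced with 1 library each. The 3 supernatant libraries are not analysed here. The authors deposited 1 peak list per enriched library with chromosome, start and end, exported from a genome browser table per the file headers. Uniquely placed reads defined the bound DNA per the labels' protocols, and mm9 is the build that the submitters' processing notes name. The sources used here name no aligner, peak caller or threshold. Depth is unknown, so sensitivity may differ between lists. Coordinates are 1-based.

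The windows, members and lists were chosen with earlier results of these data known. All 6 genes and all 26 merged regions are described. Peaks that touch a window are members, and regions merge overlapping or touching peaks. With 1 library per cell type no test was run. Promoters came from RefSeq (GRCm38.p6). Other granule genes were not examined, since the gene table is of another build. Overlap counts under the 1 bp rule were tested on simulated data and matched bedtools 2.31.1. Python 3.11.15, numpy 2.4.6, scipy 1.17.1 and matplotlib 3.10.9 were used. Alternatives were the wider 50% of each list, windows widened by 50 kb, leaving out each window, 50% of the peak covered, a 500 bp gap, 1 kb bins and, added after seeing the data, peaks wholly inside the windows.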

Additional observations from a re-analysis of the deposited data

How the results depend on the processing

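All 24 values of the shares kept under the alternatives lay inside the interval of the reported share. These intervals are wide, so this is a weak check. Of 84 values in all, 61 stayed within a set limit, among them the 24 shares. The limit was the interval for shares, and a change of 1.5 times for counts and covered lengths. The remaining 23, all counts or covered lengths, moved by over 1.5 times. Most did so by construction, since a stricter list or fewer windows hold fewer peaks and wider windows hold more. With the wider 50% of each list, HSC peaks numbered 14, HSC-only regions 4 and regions in all 3 lists 8. With windows widened by 50 kb, peaks numbered 46 in HSC, 36 in CMP and 26 in ERY and covered 47736, 37322 and 24785 bp, with 11 regions in HSC and CMP and 24 in all 3. Without the Mpo, Lpo and Epx window, peaks numbered 6, 6 and 4 and covered 6699, 5699 and 3446 bp, with 1 HSC-only region, 1 of HSC with CMP and 4 in all 3. In 1 kb bins, which count long regions several times, the 3 classes held 11, 9 and 22 bins. The edge of the chromosome 10 window was tried after the data were seen, and peaks wholly inside numbered 22, 16 and 13. No paired analysis was possible because each cell type has 1 library. Without read depth, a peak that is absent from a list may be one that the list was too shallow to call.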

Other observations

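The 100 kb on either side of each window give a local comparison for the kept shares. These flanks together held 51 HSC, 35 CMP and 24 ERY peaks wholly inside them. CMP kept 72.5% of the HSC peaks of the flanks, beside 66.7% in the windows and 57.1% of all HSC peaks. ERY kept 41.2% of the HSC peaks of the flanks, beside 58.3% in the windows and 30.9% of all HSC peaks. Of the 35 CMP peaks of the flanks ERY kept 21, beside 13 of 17 in the windows and 50.7% of all CMP peaks. The flanks differed between the loci. Before the Mpo, Lpo and Epx window CMP kept 6 and ERY 2 of 11 HSC peaks, and after it both kept 4 of 5. The 11 include the 2 HSC peaks of the run without CMP peaks that lie outside the window, so this flank is not separate from that run. Before the Prtn3 and Elane window CMP kept 9 and ERY 5 of 12 HSC peaks. After it CMP kept 16 and ERY 10 of 18 HSC peaks. Around the Ctsg window the 5 HSC peaks of the flanks had no ERY peak, like 59278 of 85797 HSC peaks over the whole list. Of these 5, CMP kept the 2 that lie after the window and none of the 3 before it.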
